A study of Mus musculus with 7 samples.

Results

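The 31 genes described here encode proteins that license, start and carry out DNA replication, together with those that supply nucleotides and histones to it and those that control entry into S phase. They were taken as the rows of the deposited table whose gene name matched a given list; all 31 had a row among the 50435 gene rows, and all 31 passed the filter on low values. The RNA came from mouse marrow cells in a sort designed for sinusoidal endothelium, the lining of the marrow's venous vessels, as CD31+ Sca1- cells lacking CD45, Ter119, Gr1 and CD11b. Every recipient, in both groups, was an irradiated wild-type mouse that carried transplanted Zbtb46dtr marrow. In such marrow Zbtb46, a gene read in classical dendritic cells, drives a receptor for diphtheria toxin, so the receptor is confined to cells of the donor marrow and the host's own endothelium is wild type. After 8 weeks, 200 ng of diphtheria toxin in 100 µl of PBS (DT, 3 samples) or 100 µl of PBS alone (PBS, 4 samples) was injected into the peritoneum, and marrow was harvested after 1 day. The labels call the samples biological replicates, without giving ages or saying whether a sample is 1 mouse or a pool, so p-values measure the spread between these samples.

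Before S phase, the origin recognition complex together with Cdc6 and Cdt1 loads the MCM helicase onto DNA, and Cdc45 and the GINS complex later turn the loaded helicase into a moving one. DNA polymerases, a sliding clamp and its loader then copy the strands, while other enzymes make deoxynucleotides and chaperones place histones on the new DNA. Most of these genes are targets of E2F transcription factors and are read mainly in dividing cells. In the marrow, dividing cells are chiefly precursors of blood cells, whereas the endothelium of an undisturbed adult vessel divides rarely.

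Promoters are shown because E2F sites are the best known shared feature of this gene class. RefSeq promoter windows (GRCm38.p6) of 250 bases before to 50 bases after the start were found for 26 of the 31 genes, in 29 windows; Mcm4, Gins1, Gins2, Pole and Ccne2 had none. An E2F site was searched on both strands as TTTNGCGC or TTTCCCGC, and matches may overlap each other. Of the 26 genes, 10 held a match, or 38.5%, against 2.74% of the 27025 genes with a window. Among 39 other replication genes with a window 16 held one, and among 21 mitosis genes 1 did. The 250 bases before the start are printed for Mcm5 and Mcm6, whose levels are set against the rest further on, for the second of the Uhrf1 windows, a gene lower in DT, and for Ccne1, the gene with the greatest fall. Capitals mark E2F matches, read 5′ to 3′ on the gene's strand.
Mcm5, chr8:75109259-75109508, plus strand: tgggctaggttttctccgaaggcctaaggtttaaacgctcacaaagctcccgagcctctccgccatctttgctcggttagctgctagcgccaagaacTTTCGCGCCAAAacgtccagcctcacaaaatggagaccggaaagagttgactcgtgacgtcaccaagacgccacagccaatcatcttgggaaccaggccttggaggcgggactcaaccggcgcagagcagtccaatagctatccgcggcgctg
Mcm6, chr1:128359706-128359955, minus strand: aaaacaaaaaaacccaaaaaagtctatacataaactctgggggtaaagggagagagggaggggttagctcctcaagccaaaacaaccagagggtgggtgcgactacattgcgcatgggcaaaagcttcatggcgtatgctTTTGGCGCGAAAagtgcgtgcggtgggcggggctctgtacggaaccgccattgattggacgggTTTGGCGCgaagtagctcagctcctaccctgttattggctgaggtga
Uhrf1, chr17:56304063-56304312, plus strand: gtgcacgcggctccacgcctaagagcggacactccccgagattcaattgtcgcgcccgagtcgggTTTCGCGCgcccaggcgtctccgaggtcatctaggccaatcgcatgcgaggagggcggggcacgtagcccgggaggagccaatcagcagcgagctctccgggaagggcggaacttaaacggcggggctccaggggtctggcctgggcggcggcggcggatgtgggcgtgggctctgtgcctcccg
Ccne1, chr7:38107491-38107740, minus strand: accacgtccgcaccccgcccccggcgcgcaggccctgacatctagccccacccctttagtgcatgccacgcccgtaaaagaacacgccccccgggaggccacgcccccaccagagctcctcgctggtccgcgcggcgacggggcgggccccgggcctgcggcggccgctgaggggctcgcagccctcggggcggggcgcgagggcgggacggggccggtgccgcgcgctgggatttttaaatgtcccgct
In Mcm5 and in Mcm6 the capitals of 12 letters are 2 overlapping matches, one on each strand, and Mcm6 holds a further match nearer its start. The Ccne1 window holds no match in these letters. Of the 11 genes lower in DT that had a window 2 held a match, Uhrf1 and Cdt1, and of the 15 others 8 did. The CCAAT box was present in 61.5% of the 26 genes and in 41.1% of all genes with a window. The letters TTTGAA, part of the element known as CHR in promoters of mitosis genes, were present in 11.5% of the 26 genes, in 76.2% of the 21 mitosis genes and in 20.2% of all genes. A match is a description of the letters and was not tested as a site.

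The libraries were sequenced to between 33200000 and 51200000 reads, as implied by the value of 1 read in each, so a signal of 3 reads equals 0.0585 to 0.0904 RPM (reads per 1e6 of a library). The lowest of the 31 genes in any library was Ccne1 at 5.52 RPM, far above that floor, which covers counting error only. The sorted material did not carry the defining markers of endothelium at more than a trace. The 14 listed endothelial genes summed to 4.44 to 12.6 RPM in PBS and 11.4 to 19.3 RPM in DT, and 13 of the 14 were at 0 in at least 1 library. Over all libraries Esam and Cdh5 were the most abundant of them, with Esam at means of 0.813 RPM in PBS and 2.81 in DT and Cdh5 at 0.811 and 2.10 RPM. In PBS the most abundant was Plvap, named after its values were seen, at 1.71 ± 1.38 RPM against 0.148 ± 0.236 RPM in DT, which did not pass. Of the 4 endothelial genes tested, Flt1 alone passed, as a rise from 0.206 to 2.08 RPM, where 13.4% of all tested genes were higher. It too is named after its values were seen. The 16 neutrophil genes, by contrast, summed to 2069 to 4635 RPM in PBS and 60278 to 64727 RPM in DT. The replication genes are therefore described as RNA of the sorted samples and are not assigned to a cell type. In such bulk RNA, fewer dividing cells and less RNA per dividing cell cannot be told apart.

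After DT 15 of the 31 replication genes were lower, 0 were higher and 16 did not pass the threshold, whereas over all tested genes 18.6% were lower, 13.4% higher and 32.0% either. The test was limma on log2(RPM + 1) at a Benjamini-Hochberg adjusted p under 0.05, over the 14100 genes whose mean reached 1 RPM. Among genes whose mean reached 5 RPM, a level that all 31 exceed, 23.7% were lower. The 0 rises also held at an unadjusted p under 0.05. The median log2 difference of the 31 genes was -0.56, against -0.23 over all tested genes. Every DT library lay below every PBS library in 19 of the 31 genes, among them all 15 that passed, and over all genes this was so for 24.7%. The 4 largest falls by ratio of group means were those of Ccne1, Dut, Cdt1 and Chaf1a, and Cdc45 was the only member with a higher mean in DT.

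The count depended on the scaling, the filter and the libraries used. Quantile normalization left 12 of the 31 lower, or 38.7%, where 17.0% of all genes were lower. Without DT replicate 1, 2 or 3 the count was 8, 8 and 6, where 10.7%, 11.4% and 8.62% of all genes were lower. Without a filter it was 5, where 5.80% of all genes were lower. Median-ratio scaling, which moved the median of all genes from -0.23 to -0.023, left 4 of the 31 lower, or 12.9%, where 9.37% of all genes were lower. Under that scaling 64.1% of all calls were rises, against 41.9% as deposited. The 4 were Cdt1, Gins2, Dut and Ccne1, which passed in all 15 alternatives tried. The summed level of the 31 genes ran from 4386 to 6148 RPM in PBS and from 3752 to 4083 RPM in DT. The PBS libraries thus spread more widely than the DT libraries, without reaching them.

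**Figure D1:**
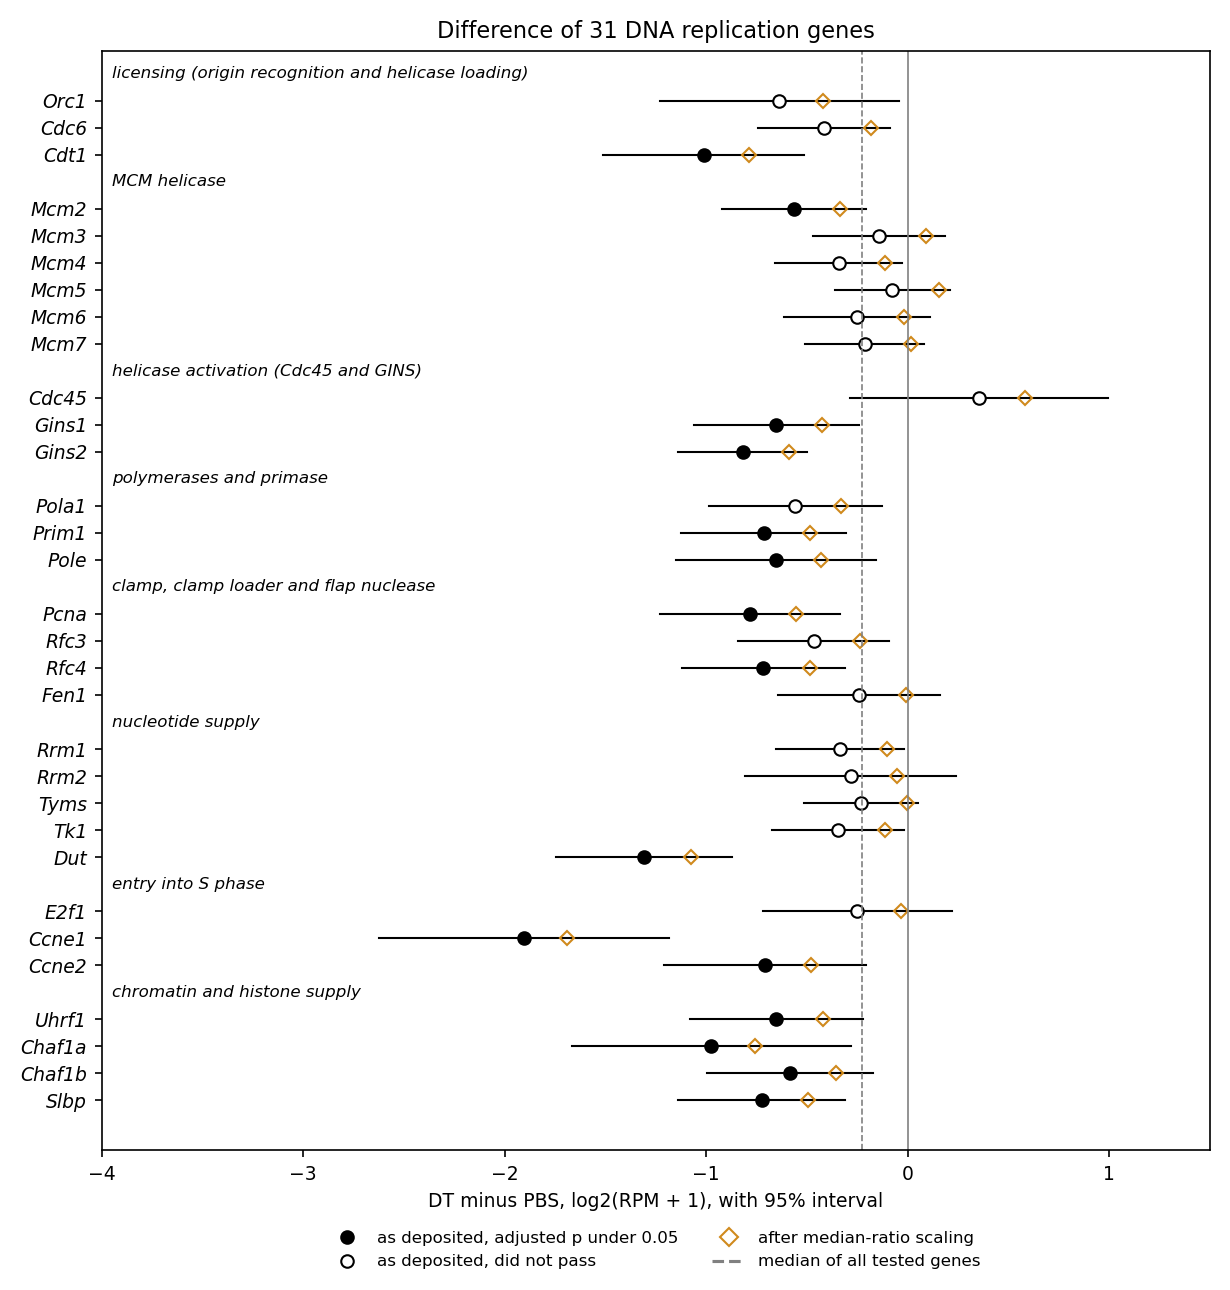
Log2 difference, DT minus PBS, of each of the 31 genes grouped by role, with its 95% interval (lines), filled where the adjusted p was under 0.05. Open diamonds give the difference after median-ratio scaling, and the dashed line the median of all tested genes; Ccne1, Dut, Cdt1 and Gins2 stay far to the left of 0 on both scales, and Mcm3, Mcm5 and Mcm7 move to the right of it.

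Among the genes of entry into S phase, Ccne1 and Ccne2 were lower and E2f1 did not pass. They encode the cyclins E1 and E2, which activate Cdk2 at the start of replication, and E2f1 encodes an activating E2F factor. Ccne1 (chromosome 7 at 38097984 to 38107534 on mm10, GENCODE vM21) was at 15.3, 39.9, 31.6 and 26.1 RPM in PBS replicates 1 to 4 and at 8.41, 5.52 and 5.60 RPM in DT replicates 1 to 3. Every PBS library was thus well above every DT library. By the ratio of group means, used for every fold and percent here, Ccne1 fell 4.33-fold, from 28.2 ± 10.3 RPM (SD, n = 4) to 6.51 ± 1.65 RPM (SD, n = 3), a log2 difference of -1.90 with an SE of 0.32 (limma, adjusted p = 0.00202). Ccne2 was at 159, 95.4, 77.6 and 106 RPM in PBS and at 70.6, 65.4 and 57.5 RPM in DT. PBS replicate 1, the lowest PBS library for Ccne1, was the highest for Ccne2. Ccne2 had a log2 difference of -0.71 (limma, adjusted p = 0.0371), but missed the threshold without PBS replicate 4, without any one DT library, under both other scalings, without a filter and without the trend. Its exons share 609 bases with Ints8 on the opposite strand, and strand use is not stated. E2f1 averaged 15.6 ± 1.52 RPM in PBS against 13.0 ± 1.92 RPM in DT, with an interval of -0.72 to 0.22 for its log2 difference.

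Of the enzymes that supply nucleotides, Dut was lower and the other 4 did not pass. Dut encodes dUTPase, which destroys dUTP and so keeps uracil out of DNA. Dut (chromosome 2 at 125247190 to 125258608) was at 186, 313, 179 and 209 RPM in PBS and at 83.2, 93.6 and 83.6 RPM in DT. The groups were far apart, with the DT libraries close together. Dut fell 2.55-fold, with a log2 difference of -1.31 and an SE of 0.20 (limma, adjusted p = 0.00100). Tyms, the thymidylate synthase that uses the product of dUTPase, averaged 161 ± 14.3 RPM in PBS against 137 ± 4.32 RPM in DT (limma, adjusted p = 0.188). Tk1, the thymidine kinase of dividing cells, was at 110 ± 13.0 and 86.5 ± 9.83 RPM. For Tyms and Tk1 no DT library reached a PBS library, though neither passed. Rrm1 and Rrm2 encode the subunits of ribonucleotide reductase. Rrm1 was at 343 ± 32.8 and 272 ± 36.2 RPM. Rrm2 was at 1296, 717, 612 and 839 RPM in PBS and at 751, 619 and 685 RPM in DT, so that PBS replicate 1 stood above all others and the groups overlapped. The interval for the log2 difference of Rrm2 ran from -0.81 to 0.24.

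Cdt1 was lower among the licensing genes, and Orc1 and Cdc6 did not pass. Cdt1 helps Cdc6 and the origin recognition complex, whose largest subunit is Orc1, to load the MCM helicase. Cdt1 was at 38.4, 70.3, 50.6 and 62.5 RPM in PBS and at 22.3, 27.3 and 29.9 RPM in DT. The groups did not overlap, with PBS replicate 1 nearest to DT. Cdt1 fell 2.09-fold, with a log2 difference of -1.01 and an SE of 0.22 (limma, adjusted p = 0.00790). Cdc6 averaged 122 ± 14.2 RPM in PBS against 91.2 ± 9.91 RPM in DT, again without overlap (limma, adjusted p = 0.0556). Orc1 was at 11.7, 20.7, 21.9 and 20.9 RPM in PBS and at 13.8, 10.9 and 9.85 RPM in DT. PBS replicate 1 alone lay within the DT range. Without PBS replicate 1 Orc1 and Cdc6 passed, with adjusted p of 0.0124 and 0.0348 by limma.

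The MCM helicase is a ring of the proteins Mcm2 to Mcm7, each encoded by its own gene. Mcm2 alone of the 6 was lower in DT, and the log2 differences of the 6 ran from -0.56 to -0.075, with those of Mcm3, Mcm5 and Mcm7 above 0 after median-ratio scaling. Mcm2 was at 144, 186, 156 and 185 RPM in PBS and at 93.3, 123 and 124 RPM in DT, without overlap (log2 difference -0.56, SE 0.16; limma, adjusted p = 0.0232). Mcm2 lost its call when PBS replicate 4 or DT replicate 1 was left out, without a filter, without the trend and after median-ratio scaling, where limma gave an adjusted p of 0.127. Mcm5 was at 253, 230, 241 and 290 RPM in PBS and at 235, 237 and 247 RPM in DT. Every DT library lay within the PBS range. Its log2 difference was -0.075, with an interval from -0.36 to 0.21. Mcm3 was at 239 ± 31.7 and 216 ± 19.4 RPM, Mcm6 at 252 ± 39.1 and 210 ± 23.6 RPM, and Mcm7 at 276 ± 18.4 and 239 ± 27.3 RPM. Mcm4 was at 187 ± 17.6 and 147 ± 17.4 RPM (limma, adjusted p = 0.0895). Per length, as RPM per kilobase of the longest coding transcript, the PBS means ran in the order Mcm2 (49.8), Mcm4 (52.1), Mcm6 (57.8), Mcm5 (75.0), Mcm3 (79.0) and Mcm7 (93.2). Gm5487 matches 72.8% of the Mcm7 transcript at 97.7% identity, so the level of Mcm7 is uncertain.

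Among the activators of the helicase, Gins1 and Gins2 were lower and Cdc45 was not. Gins2 was at 127, 142, 110 and 109 RPM in PBS and at 67.5, 67.3 and 69.8 RPM in DT. The 3 DT libraries were nearly equal and all well below PBS. Gins2 fell by 44.0%, with a log2 difference of -0.82 and an SE of 0.14 (limma, adjusted p = 0.00233). Its exons share 2758 bases with Gse1 on the opposite strand, a gene that averaged 17.0 RPM in PBS against 7.98 RPM in DT. Gins1, another subunit of the same complex, was at 40.2 ± 4.09 and 25.4 ± 4.55 RPM (log2 difference -0.65; limma, adjusted p = 0.0227), and lost its call after median-ratio scaling or when DT replicate 2 was left out. Cdc45 was at 67.5, 40.5, 24.9 and 50.6 RPM in PBS and at 50.3, 59.6 and 57.0 RPM in DT. The DT libraries lay inside the wide PBS range, whose ends were PBS replicates 3 and 1. The interval for its log2 difference, -0.29 to 1.00, allows a change in either direction.

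**Figure D2:**
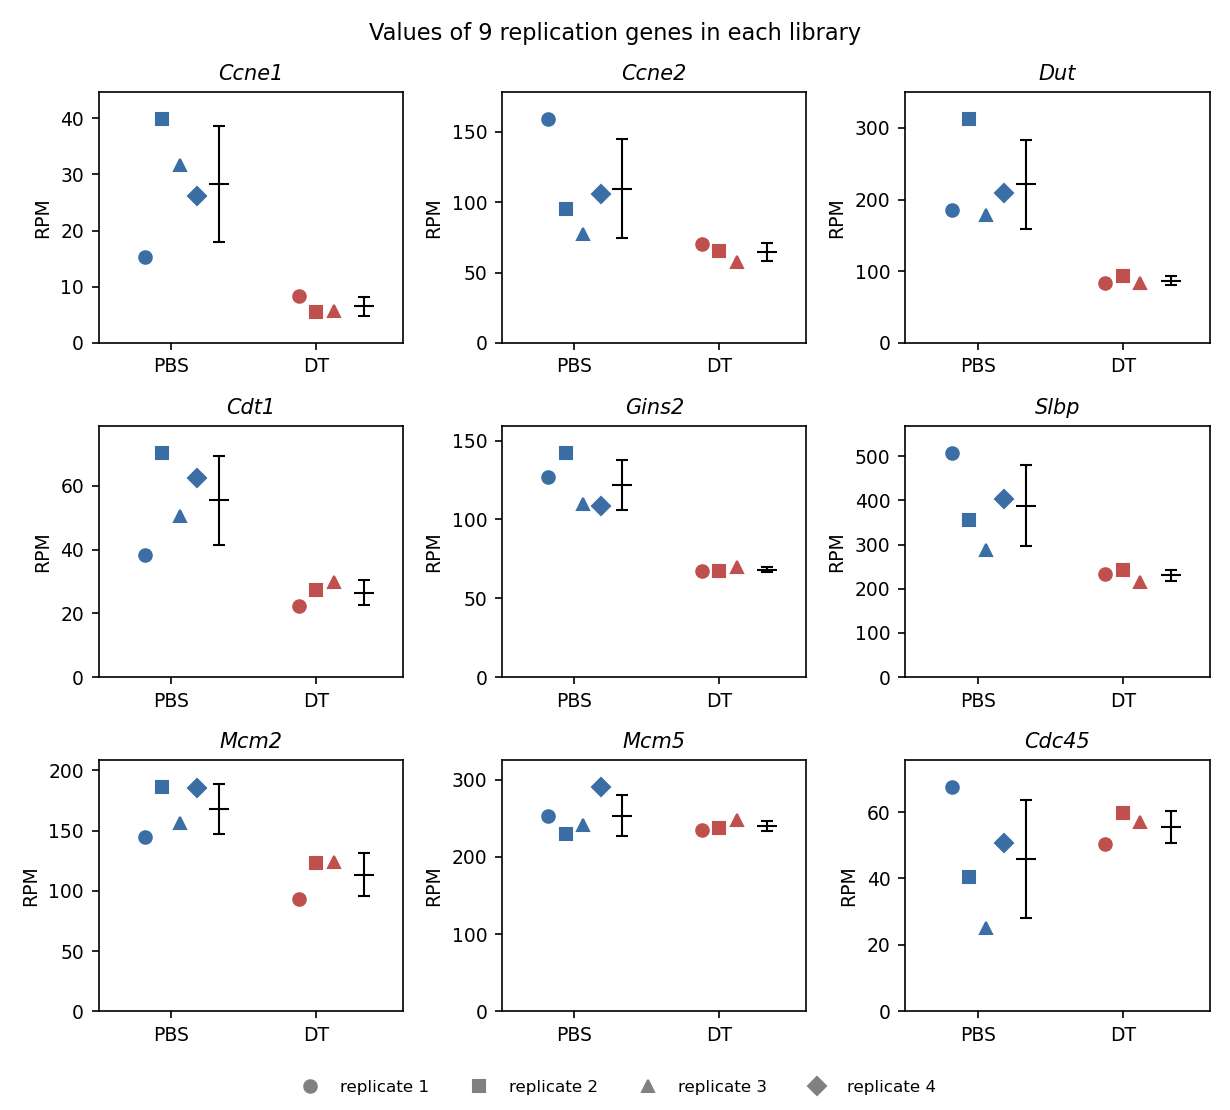
RPM of 9 of the genes in each library (blue PBS, red DT; symbols give the replicate number), with the mean and SD of each group as a bar at the right. Ccne1, Dut, Cdt1 and Gins2 show no overlap between groups, the DT values of Mcm5 and Cdc45 lie within the PBS range, and PBS replicate 1 is lowest for Ccne1 and highest for Ccne2.

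All 4 genes for chromatin and histone supply were lower. Slbp, which encodes the protein that binds the stem-loop of replication histone mRNAs, was at 507, 355, 288 and 403 RPM in PBS and at 232, 242 and 216 RPM in DT. It fell by 40.8% (log2 difference -0.72; limma, adjusted p = 0.0153). Uhrf1, which guides maintenance DNA methylation to new strands, was at 449, 307, 243 and 308 RPM in PBS and at 203, 212 and 194 RPM in DT. For both genes PBS replicate 1 was the highest library and PBS replicate 3 came closest to DT. Uhrf1 had a log2 difference of -0.65 (limma, adjusted p = 0.0277). Chaf1a and Chaf1b encode subunits of the chromatin assembly factor CAF-1. Chaf1a was at 20.8, 32.3, 22.0 and 16.4 RPM in PBS and at 12.5, 14.9 and 6.69 RPM in DT (limma, adjusted p = 0.0375), and its exons share 4648 bases with Ubxn6 on the opposite strand. Ubxn6 averaged 36.0 RPM in PBS against 27.6 RPM in DT, above Chaf1a in both groups. Chaf1b fell from 75.7 ± 15.7 to 49.7 ± 6.20 RPM (limma, adjusted p = 0.0360). None of the 4 kept its call under median-ratio scaling, where adjusted p by limma ran from 0.0986 for Slbp to 0.173 for Uhrf1, nor without a filter. Uhrf1 and Chaf1b also lost theirs without the trend and Chaf1a after quantile normalization. Leaving out single libraries also ended calls, namely DT replicate 1 or 3 for all 4 genes, DT replicate 2 for Uhrf1 and Chaf1b, PBS replicate 2 or 3 for Chaf1a and Chaf1b, and PBS replicate 4 for Uhrf1 and Chaf1b.

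At the fork, Prim1 and Pole passed and Pola1 did not, and Pcna and Rfc4 passed while Rfc3 and Fen1 did not. Prim1, the catalytic subunit of primase, fell from 117 ± 22.6 to 70.4 ± 11.0 RPM (log2 difference -0.71; limma, adjusted p = 0.0157). Pole, the catalytic subunit of the leading strand polymerase, was at 36.4, 48.0, 27.1 and 27.8 RPM in PBS and at 22.1, 20.9 and 20.6 RPM in DT. It lay at the edge of the threshold (limma, adjusted p = 0.0484) and passed in 4 of the 15 alternatives. Pola1, which extends the primers, was at 47.3 ± 8.15 and 31.7 ± 4.72 RPM (limma, adjusted p = 0.0514) and passed in 3 of them, among them without PBS replicate 3. Pcna encodes the sliding clamp and was at 299, 244, 176 and 210 RPM in PBS and at 158, 109 and 134 RPM in DT. The lowest PBS library, replicate 3, stood close above the highest DT library. Pcna fell by 42.5% (log2 difference -0.78; limma, adjusted p = 0.0153). The row Pcna-ps2, a pseudogene that matches 51.4% of the Pcna transcript at 99.2% identity, was at almost the same level, 226 ± 48.1 RPM in PBS and 139 ± 27.3 RPM in DT, so reads may have been split between them. Summed, the rows were at 458 ± 100.5 and 273 ± 52.1 RPM. Rfc4, a subunit of the clamp loader, fell from 184 ± 39.0 to 111 ± 15.2 RPM (limma, adjusted p = 0.0148), and Rfc3, a further subunit, was at 78.6 ± 13.2 and 56.3 ± 5.86 RPM (adjusted p = 0.0585, and past the threshold without PBS replicate 3). Fen1, the nuclease that trims Okazaki fragments, was at 222 ± 53.4 and 184 ± 4.26 RPM, with overlap. Its exons share 1909 bases with Gm10143 on the opposite strand. Prim1, Pole, Pcna and Rfc4 each lost their calls after median-ratio scaling, without a filter and when DT replicate 3 was left out, and Pcna and Rfc4 also when DT replicate 2 was. Pole held when PBS replicate 3 was left out and for no other single library.

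**Figure D3:**
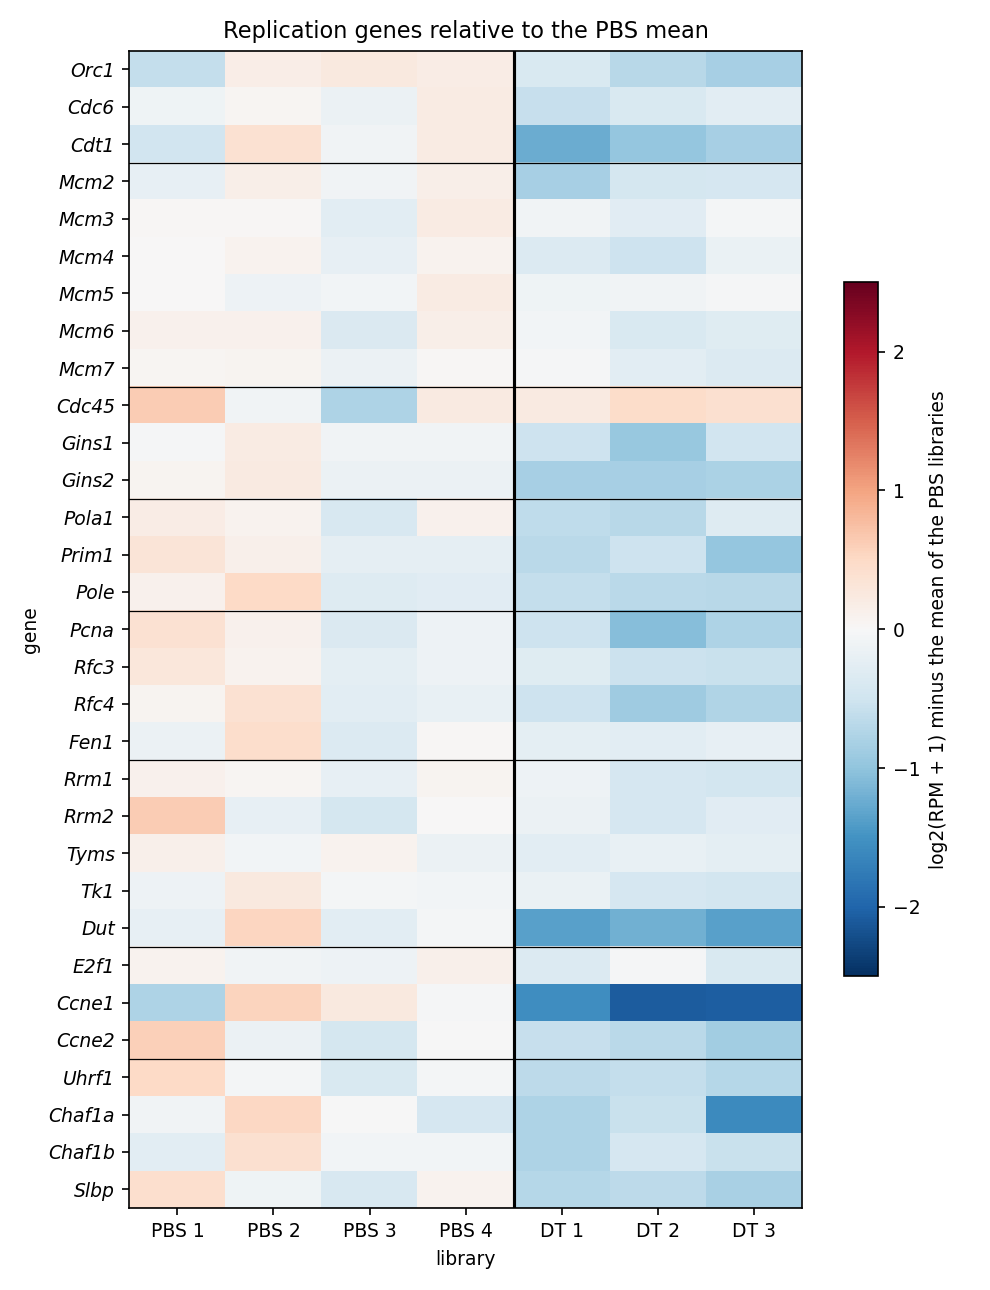
Log2(RPM + 1) of each gene in each library minus the mean of the PBS libraries (blue lower, red higher; horizontal lines separate the roles). The 3 DT columns are blue in nearly all rows, deepest for Ccne1 and Dut, and the PBS columns differ among themselves, with PBS 3 pale blue in most rows.

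The PBS libraries differed among themselves in a way that varied by gene. PBS replicate 3 was the lowest PBS library for 20 of the 31 genes, PBS replicate 2 the highest for 14 and PBS replicate 1 the highest for 11. PBS replicate 1 was the lowest for 6 genes, namely Orc1, Cdt1, Mcm2, Tk1, Ccne1 and Chaf1b. The list of 17 erythroid genes had its lowest PBS value in PBS replicate 1 for 16 genes, and the list of 25 mitosis genes its highest PBS value there for 22. The median deviation of the 31 genes from their group's mean log2 value was -0.21 in PBS replicate 3, 0.10 in PBS replicate 2 and between -0.03 and 0.06 in the other 5 libraries.

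Ratios of genes within a library do not change when all its values are multiplied by a common factor, as in median-ratio scaling. Quantile normalization can change them. The ratios given here were chosen after the values were seen and are given without a test. The ratio of Dut to Tyms was 1.06, 2.05, 1.05 and 1.44 in PBS and 0.625, 0.662 and 0.619 in DT. The ratio of Cdt1 to Cdc6 was 0.341, 0.562, 0.464 and 0.445 in PBS and 0.277, 0.294 and 0.299 in DT. The ratio of Gins2 to Cdc45 was 1.88, 3.51, 4.40 and 2.15 in PBS and 1.34, 1.13 and 1.22 in DT. In these 3 pairs the first gene, which passed the test, was lower relative to the second, which did not, in every DT library. Other pairs overlapped between groups: Rrm2 to Rrm1 ran from 2.04 to 3.53 in PBS and from 2.40 to 2.78 in DT, Pcna to Fen1 from 0.828 to 1.52 and from 0.602 to 0.864, and Chaf1a to Chaf1b from 0.230 to 0.335 and from 0.132 to 0.291. The ratio of Ccne1 to Ccne2 was 0.418, 0.407 and 0.248 in PBS replicates 2 to 4, but 0.0959 in PBS replicate 1, within the DT range of 0.0843 to 0.119. Set against the mean of Mcm2 to Mcm7, 10 of the 25 other genes were lower in every DT library than in every PBS library, 0 were higher and 15 overlapped. Over 14092 tested genes set against the same mean, 13.7% were lower without overlap and 20.5% higher. The 10 were Cdt1, Gins1, Gins2, Pcna, Rfc4, Dut, Ccne1, Ccne2, Uhrf1 and Slbp. Relative to Mcm3 to Mcm7, Mcm2 itself overlapped, since PBS replicate 1 (0.584) lay below DT replicate 2 (0.627).

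**Figure D4:**
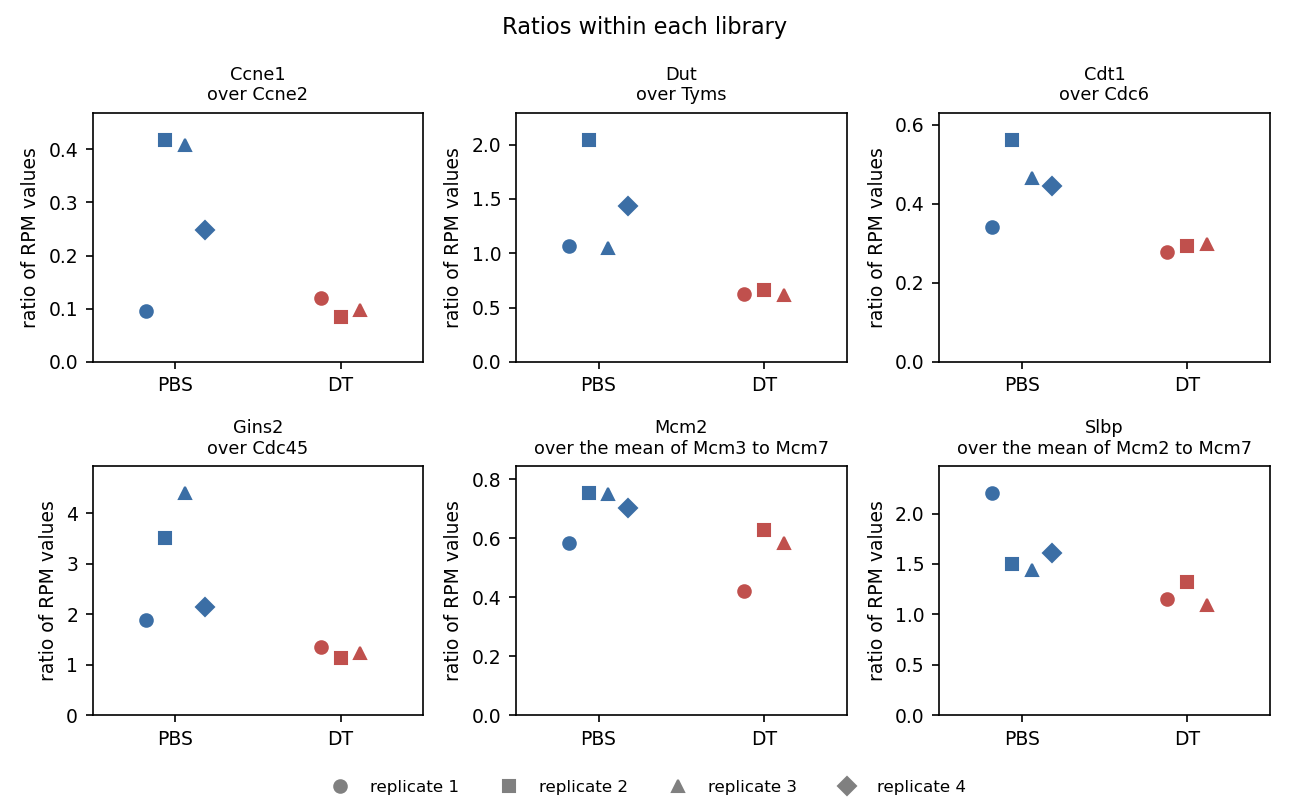
Ratios of RPM values between genes within each library (symbols give the replicate number; axes start at 0). Dut to Tyms, Cdt1 to Cdc6, Gins2 to Cdc45 and Slbp to the MCM mean show no overlap between groups, whereas in Ccne1 to Ccne2 and in Mcm2 to the other MCM genes PBS replicate 1 reaches the DT range.

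Of 49 other replication genes listed 48 had a row, and all 48 were tested. Of these 20 were lower, 0 higher and 28 did not pass, with a median log2 difference of -0.50; the 0 rises also held at an unadjusted p under 0.05, which 16.5% of all genes passed as rises. The share lower was 41.7%, against 18.6% of all tested genes. The 6 with the smallest p were Rpa3, Wdhd1, Prim2, Dtl, Orc6 and Topbp1. Rpa3, the small subunit of the protein that coats single-stranded DNA, fell from 76.0 ± 10.8 to 35.9 ± 3.59 RPM (limma, adjusted p = 0.00129). Wdhd1, which links the helicase to the primase complex, was at 75.6, 73.5, 69.9 and 76.5 RPM in PBS and at 41.7, 35.0 and 42.1 RPM in DT. Prim2, the other primase subunit, fell from 100.2 ± 14.3 to 53.7 ± 4.15 RPM, much as Prim1 did. Orc6 fell from 115 ± 11.7 to 66.4 ± 9.79 RPM, Dtl, part of the ligase complex that destroys Cdt1, from 94.9 ± 5.45 to 57.4 ± 5.60 RPM, and Topbp1, which helps load Cdc45, by 43.8%. Of those with a higher mean, the 2 with the smallest p did not pass: Dna2 went from 32.4 ± 1.67 to 37.8 ± 3.85 RPM and Gins3 from 15.2 ± 3.62 to 17.4 ± 2.47 RPM. All 6 of the lower genes named here passed in all 15 alternatives. The count of 20 shrank to 9 when DT replicate 3 was left out, to 13 when DT replicate 2 was and to 10 after median-ratio scaling. In these settings the share of all genes that was lower also shrank, from 18.6% to 8.62%, 11.4% and 9.37%.

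Of 25 G1 regulators and inhibitors, 24 were tested, 9 were lower, 1 was higher and 14 did not pass. The share lower was 37.5%, against 18.6% of all tested genes, of which 13.4% were higher. Tfdp2, a partner of E2F factors, fell from 62.6 ± 7.16 to 21.5 ± 6.28 RPM (limma, adjusted p = 0.000729), and E2f4, a mainly repressive E2F factor, from 110 ± 44.2 to 49.3 ± 4.79 RPM. Cdk4, the kinase that acts with D cyclins in G1, fell from 389 ± 81.6 to 220 ± 20.8 RPM. The inhibitors of cyclin-dependent kinases moved both ways. Cdkn1b (p27) fell by 39.9% and Cdkn2c (p18) by 58.1%. Cdkn2d (p19) was at 261, 101, 107 and 121 RPM in PBS and at 305, 286 and 265 RPM in DT, a log2 difference of 1.06 (limma, adjusted p = 0.0210). PBS replicate 1 stood apart from the other PBS libraries and just below DT. Rrm2b, the reductase subunit used outside S phase, fell from 63.5 ± 10.1 to 34.2 ± 2.60 RPM. Tfdp2, Cdk4 and Rrm2b passed in all 15 alternatives. E2f4 lost its call when DT replicate 2 or 3 was left out, Cdkn2c when DT replicate 1 or 3 was, Cdkn1b when PBS replicate 4 or DT replicate 2 or 3 was, and Cdkn2d when PBS replicate 3 or 4 or any one DT library was. Without a filter E2f4, Cdkn1b, Cdkn2c and Cdkn2d did not pass, nor did Cdkn1b and Cdkn2c after median-ratio scaling.

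Mitosis genes act after replication in dividing cells, and most of those listed did not pass. Of 25 tested, 2 were lower, 0 higher and 23 did not pass, with a median log2 difference of -0.047, above the -0.23 of all genes; the 0 rises also held at an unadjusted p under 0.05. Over all tested genes 18.6% were lower and 13.4% higher, so the list lay below both shares. Cenpa, the histone of centromeres, fell from 192 ± 28.9 to 108 ± 10.1 RPM (limma, adjusted p = 0.00338), and Cdc20, an activator of the anaphase complex, from 54.3 ± 7.93 to 37.5 ± 3.80 RPM (adjusted p = 0.0395). Aurka and Kif20a, a kinase and a motor of the spindle, did not pass, at 56.6 ± 12.9 and 86.8 ± 28.4 RPM in PBS against 71.9 ± 3.56 and 108 ± 11.4 RPM in DT. Without PBS replicate 1 the list had 3 higher genes, Kif20a, Kif23 and Nusap1, and with sample weights 2, Aurka and Kif23; Kif23 and Nusap1 are named after their values were seen. Cenpa passed in all 15 alternatives. The difference between the mitosis and replication lists was not tested. The summed mitosis list ran from 2179 to 4821 RPM in PBS, with PBS replicate 1 the highest, and from 2574 to 2791 RPM in DT. Without PBS replicate 3 the count of lower genes was 4 and without PBS replicate 1 it was 3, whereas Cenpa alone passed without PBS replicate 2 or 4, without any one DT library, under median-ratio or quantile scaling, without a filter or without the trend.

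Markers of blood cells also differed between the groups, with some lists mostly lower in DT and others mostly higher. Their part in these results was not tested. Over all tested genes 18.6% were lower and 13.4% higher, the shares to set beside the counts that follow. Of 17 erythroid genes 10 were lower and 3 higher. The erythroid list summed to 1028 RPM in PBS replicate 1, 6967 to 11366 RPM in the other PBS libraries and 1571 to 2093 RPM in DT. Over all libraries its most abundant genes were Car2 and Car1, which encode carbonic anhydrases, at 418 and 230 RPM in PBS replicate 1 against 3314 to 5500 and 2338 to 3651 RPM in the other PBS libraries and means of 180 ± 48.2 and 75.9 ± 29.0 RPM in DT. The 3 that rose, named after their values were seen, were Hbb-bs and Hba-a1, which encode globins, and Alas2, an enzyme of heme synthesis. Hbb-bs, the most abundant of the list in DT, went from 320 ± 182 to 991 ± 148 RPM, Hba-a1 from 177 ± 100.1 to 453 ± 66.2 RPM and Alas2 from 7.30 ± 3.90 to 35.0 ± 4.10 RPM. Of 14 B precursor genes 10 were lower, and the list summed to 7912 to 12125 RPM in PBS and 5658 to 6826 RPM in DT; of its most abundant genes, Cd79a fell from 1268 ± 258 to 718 ± 36.2 RPM and Ighm, at 3076 ± 846 and 2607 ± 443 RPM, did not pass. All 16 neutrophil genes were higher, with Ngp and S100a8 at 18498 and 9818 RPM in DT. Of 10 monocyte and macrophage genes 9 were higher, with Lyz2 going from 366 ± 95.3 to 5890 ± 722 RPM and Ly6c2 from 113 ± 43.8 to 867 ± 28.6 RPM. Of 9 tested T and natural killer genes 7 were higher, among them Nkg7, which went from 28.0 to 270 RPM, while Cd2, at 56.3 and 56.5 RPM, did not pass. In PBS replicate 1 the erythroid sum was below that of every DT library, but the genes of the list differed in this. Hbb-bs was at 133 RPM there against 825 to 1109 RPM in DT. By contrast, Car2 was at 418 RPM there against 134 to 230 RPM in DT, and Car1 at 230 RPM against 45.1 to 103 RPM. The summed replication level of PBS replicate 1 was 6148 RPM, the highest of the 7. Rrm2 was at 1296 RPM there against 612 to 839 RPM in the other PBS libraries. By the median deviation of the 31 genes, PBS replicate 2 stood higher, at 0.10 against 0.065. Leaving PBS replicate 1 out gave 16 lower replication genes of 31, or 51.6%, where 25.6% of all genes were lower. A link between these levels was not tested.

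**Figure D5:**
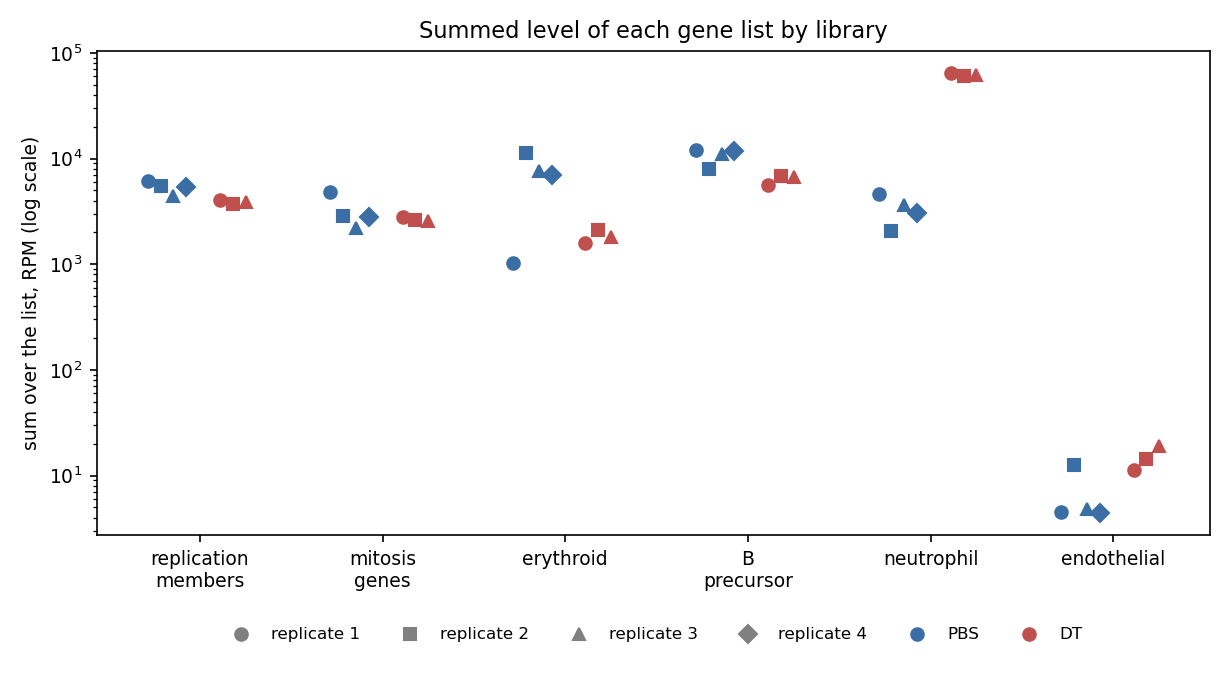
Summed RPM of each gene list in each library, on a log axis (blue PBS, red DT; symbols give the replicate number). The replication sum is lower in every DT library, and the neutrophil sum is far higher in DT. The erythroid sum, which includes the globin genes that rose in DT, lies below DT in PBS replicate 1. The endothelial sum stays under 20 RPM in all 7 libraries.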

How the data were processed

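The authors deposited 1 table labelled FPKM. The deposited values were treated as RPM, made by the authors from aligned reads, plus an offset of 0.0001, since in each library 1029 to 1206 genes shared the most frequent low value although their transcripts ran from at most 209 bases (percentile 10) to at least 4958 bases (percentile 90). Reads were not recovered, since 60.4% to 62.1% of values under 20 steps were whole within 0.02. STAR 2.5.3a, Partek and mm10 are named per the submitters' processing notes; which annotation and strand setting were used is not given in the sources used here. Libraries were made from 1 ng of RNA with 14 amplification cycles and read as single reads of 50 bases, per the labels' protocols.

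The offset was removed, and log2(RPM + 1) of the 14100 genes whose mean reached 1 RPM was tested with limma-trend (limma 3.58.1, R 4.3.3), two-sided, with Benjamini-Hochberg adjustment at 0.05; this scale understates changes of low genes. The members and lists were chosen with earlier results of these data known. The text names all 31 members, up to 6 genes per direction with the smallest p from each related list (2 where none passed) and the 2 most abundant genes of each cell type list. The method was tested on simulated data. Near-identical transcripts were sought with BLAST 2.17.0 (at least 95% identity over 30% of the transcript). Alternatives covered the pseudocount, filter, scaling, variance model, replicate block and each library.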

Additional observations from a re-analysis of the deposited data

Results flagged for a closer look

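In the 4 PBS libraries of the 31 genes, 2 values stood apart by the gap to the nearest library relative to the range, where chance gives about 1 in 20. Orc1 was at 11.7 RPM in PBS replicate 1, below the other PBS libraries. Mcm6 was at 193 RPM in PBS replicate 3, below the other PBS libraries.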

How the results depend on the processing

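Of the 15 lower genes, 4 passed in all 15 alternatives, and 12 of the 16 others passed in none. Without a filter the number of lower members was 5, of all genes 1695 and of mitosis genes 1. Median-ratio scaling gave 4 lower members, 1321 lower genes, 10 other replication genes and 1 mitosis gene, and turned the log2 differences of Mcm3, Mcm5 and Mcm7 to 0.092, 0.16 and 0.018 and that of Ighm to 0.023. Quantile normalization and dropping the trend each left 1 mitosis gene. Leaving out 1 library gave 6 to 16 lower members, 9 to 24 other replication genes and 1 to 4 mitosis genes. Over all tested genes it gave 1215 to 3613 lower genes, or 8.62% to 25.6%. The lowest member counts were 8, 8 and 6 without DT replicates 1, 2 and 3. The log2 difference of Cd2 ran from -0.18 to 0.22 when 1 library was left out. The number of members higher was 0 in every alternative. The cause of these changes was not tested. Leaving out a library also made the number of samples smaller, and dropping the filter made the number of genes tested larger (29244).

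Replicate numbers were not taken as pairs, since deviations of same-numbered samples correlated only weakly, at 0.0419, 0.0485 and 0.0103. PBS replicates 1 and 2 did correlate best with the DT replicate of the same number. PBS replicate 3 correlated best with DT replicate 2, and PBS replicate 4, without a partner by number, reached 0.0484 with DT replicate 3. These values do not settle whether the samples were paired. A replicate block, to whose difference PBS replicate 4 adds nothing for want of a partner, gave 10 lower members and 1574 lower genes. With it Mcm2, Gins1, Pole, Uhrf1, Chaf1b and, among the other named genes, Cdc20 did not pass. Read depth set no limit on these genes, but the number of samples does.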
